A study of Mus musculus with 6 samples.

Results

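Expression of 6 genes that handle glucose and lactate was examined in the hearts of Pgc1b knockout and wild-type mice. The genes were Slc2a4 and Txnip, which bear on glucose uptake, Pfkp and Tpi1 of glycolysis, and Ldhb and Slc16a1 of lactate metabolism. They were chosen by name, with earlier results of these data known. Every probe set with values that the platform annotation assigned to 1 of these symbols alone was used. This gave 8 probe sets, out of 643 gene probe sets with values, and 6 of the 494 genes with a single symbol. Slc2a4 and Txnip had 2 probe sets each, and the other 4 genes had 1 each. Another 8 probe sets of Pfkp, Tpi1, Ldhb and Slc16a1 were blank in the table and were not analysed here.

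The series holds 1 Affymetrix array for each of 6 whole hearts. The animals were 3 Pgc1b knockout mice, with 3 wild-type mice as controls, all on a mixed background of sv129 and C57BL/6 with free access to food and water. The labels as used here give no age, sex or description of the allele, and do not say whether the controls were littermates. Values are log2 expression, so a difference of 1 is a doubling, and they were set to a common distribution across arrays before deposit. Levels of different probe sets are not comparable with each other.

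Heart muscle takes up glucose through transporters of the GLUT family. The insulin-responsive member GLUT4, encoded by Slc2a4, moves to the cell surface when insulin binds its receptor. Txnip encodes an alpha-arrestin that binds thioredoxin and promotes internalisation of glucose transporters, and its transcription is induced by glucose through the factors MondoA and ChREBP. Inside the cell phosphofructokinase carries out the committed step of glycolysis, and triosephosphate isomerase interconverts the triose phosphates further down. The heart also burns lactate, which enters through proton-linked monocarboxylate transporters such as MCT1 (Slc16a1) and is oxidised to pyruvate by a dehydrogenase rich in the LDHB subunit. Pgc1b, now named Ppargc1b, encodes a coactivator of nuclear receptors, among them the oestrogen-related receptors, which act on genes of energy metabolism. The study as titled asks about links between mitochondria and insulin signalling.

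Promoter windows from RefSeq (GRCm38.p6) were available for 5 of the 6 genes, all but Slc2a4. The 3 sequences below were chosen for Txnip, the member with the widest spread between hearts, for Pfkp, the member whose genotypes did not overlap, and for Slc16a1, which carries an E-box. All read 5′ to 3′ on the strand of the gene. The Txnip sequence is the 250 bases before the start (chr3:96557707-96557956, plus strand), with CACGAG in capitals.
Txnip: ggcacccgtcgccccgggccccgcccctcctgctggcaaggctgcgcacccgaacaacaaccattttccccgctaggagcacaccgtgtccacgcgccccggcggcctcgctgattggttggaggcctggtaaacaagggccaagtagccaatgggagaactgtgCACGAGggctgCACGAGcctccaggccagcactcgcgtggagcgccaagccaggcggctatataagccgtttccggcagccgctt
The Slc16a1 sequence covers 30 bases (chr3:104638454-104638483, plus strand) with the E-box CACGTG in capitals, and the Pfkp sequence the last 30 bases before the start (chr13:6648772-6648801, minus strand) with GGGCGG, the GC box bound by Sp factors, in capitals.
Slc16a1: ggcgccgggtCACGTGgcgggaaggggggc
Pfkp: GGGCGGggcgtGGGCGGctcctgcgggtgc

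The 250 bases before each start were searched on both strands for the 2 elements in Txnip and Slc16a1 above, for the GC box, for the CCAAT box and for AAGGTCA, the extended half-site of oestrogen-related receptors. Txnip held CACGAG at 85 and 74 bases before the start, a pair of the kind known as a carbohydrate response element. A pair of this element with 5 bases between, which overlaps its single copies by construction, was looked for after the sequence had been seen, and 1 of 32851 promoter windows held it (0.00304%), that of Txnip. No other matches overlapped in the 5 windows. A single CACGAG was found in 5.37% of windows. The E-box was found in 6.02%, and among the 5 members it was present only in Slc16a1, at 200 bases before the start. GGGCGG, which 32.7% of all windows contain, matched 4 times in Pfkp and 1 time each in Txnip, Slc16a1 and Tpi1. AAGGTCA, present in 4.08% of windows, matched none of the 5 members within these 250 bases. CCAAT, present in 33.8%, matched Txnip, Pfkp and Ldhb.

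The arrays had medians of 7.45 to 7.61 over the 643 gene probe sets. Ppargc1b itself was not analysed here, and the labels have no check from the targeted gene. Hybridisation spikes, added in a fixed amount as a control of array handling, averaged 9.52 ± 0.18 on knockout and 9.89 ± 0.23 on wild-type arrays (SD, n = 3 each), without overlap. The Actb signal at the 3′ end minus that at the 5′ end, which reflects RNA quality, was 0.63 ± 0.11 in knockout and 0.75 ± 0.018 in wild-type hearts, also without overlap (exact permutation p = 0.1, the smallest possible), and the same measure of Gapdh was 0.078 in knockout and 0.079 in wild-type hearts. The part of array handling and of RNA quality in the results below was not tested. Fits with the spike level as a covariate are given below. The spikes read at most 9.68 on knockout arrays and at least 9.69 on wild-type arrays. No level was shared by both genotypes, so these fits cannot separate the spike level from the genotype. Of 7 listed cardiomyocyte markers 1 was measured, Actc1, the cardiac actin, at 14.12 in knockout and 14.11 in wild-type hearts. The measured markers of other cell types were Tie1 of endothelium (-0.082, knockout minus wild type), Bpgm (0.31, brighter probe set) and Car1 (0.13) of red cells and Mpo of neutrophils (0.096). Markers of fat, skeletal muscle, fibroblasts, smooth muscle, macrophages and lymphocytes were not analysed here.

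Pfkp was the member with the widest gap. Pfkp was lower in all 3 knockout hearts than in any wild-type heart, at 79.1% of the wild-type level. The brighter probe set of Slc2a4 had a lower mean in knockout hearts, and Slc16a1 and both probe sets of Txnip had a higher one, each with overlap of the genotypes. By limma with Benjamini-Hochberg adjustment, 0 of the 8 probe sets passed an adjusted p under 0.05, where 0% of the 643 passed, and 66 of the 643 (10.3%) had an unadjusted p under 0.05, the lower ones making up 4.98% of the 643. Among the members 1 of 8 had an unadjusted p under 0.05, Pfkp, which was lower. The genotypes did not overlap in 1 of the 8 probe sets, Pfkp again, against 18.7% of all 643 in either direction and 9.02% in the downward direction. In the upward direction it was 0 of the 8, against 9.64%. These shares for the members lie near the background. Of the 8 probe sets 4 had a lower mean in knockout hearts, with a median difference of 0.0055, beside 45.7% of all 643 and a median of 0.012.

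**Figure D1:**
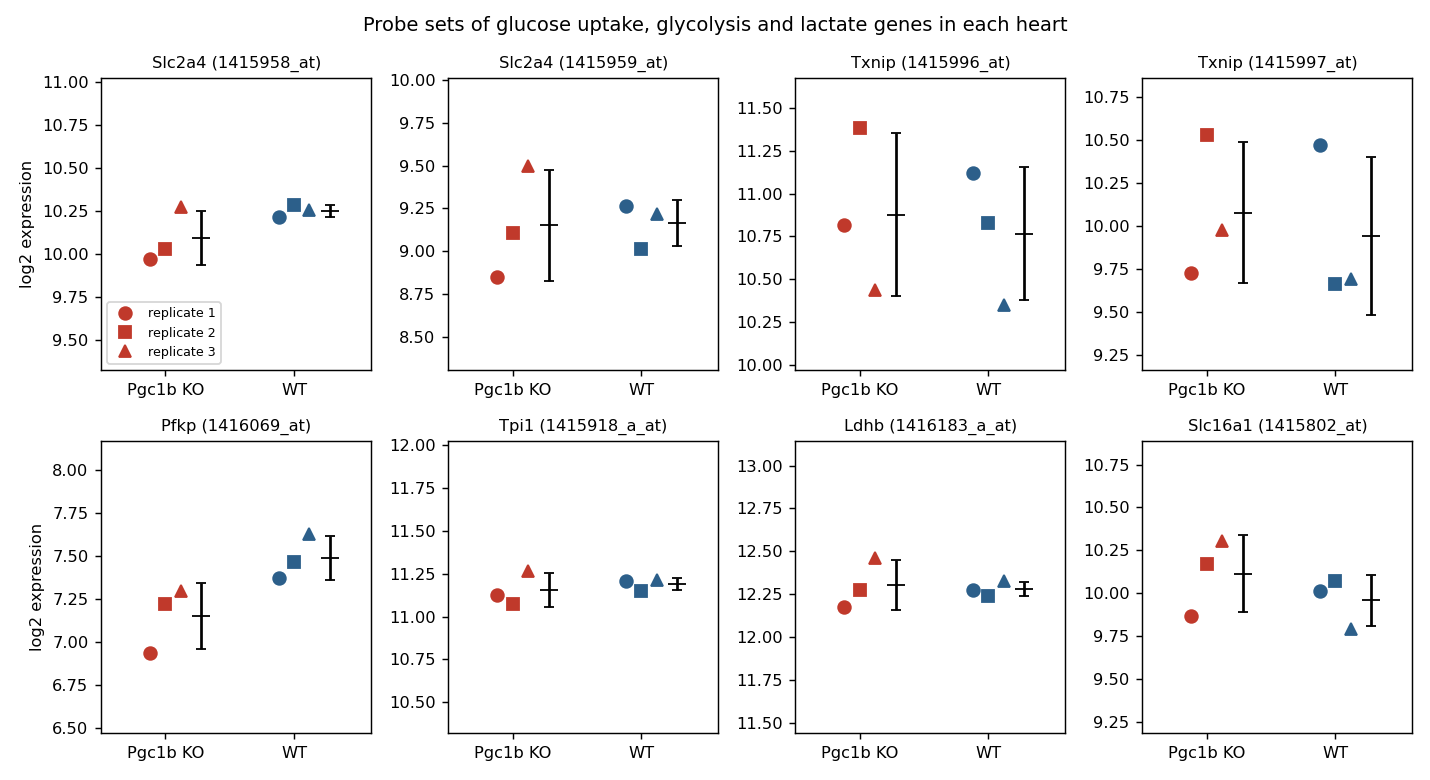
Log2 expression of the 8 probe sets in each heart, with Pgc1b knockout left of wild type, replicate numbers as symbols and the mean ± SD (n = 3) as black bars; every vertical axis spans the same width. In Pfkp the knockout hearts lie at 6.93 to 7.29 and the wild-type hearts at 7.37 to 7.63, and in the other 7 probe sets the genotypes overlap.

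Slc2a4, the GLUT4 gene, was read by 2 probe sets. The brighter one (1415958_at) read 9.97, 10.03 and 10.27 in knockout hearts 1 to 3, against 10.22, 10.29 and 10.26 in wild-type hearts 1 to 3. Knockout hearts 1 and 2 lay below the narrow wild-type range, while knockout heart 3 lay inside it. The means were 10.09 ± 0.16 in knockout and 10.25 ± 0.035 in wild-type hearts (SD, n = 3 each). The difference was -0.16 (95% interval -0.38 to 0.058), or 89.5% of wild type, and did not pass in limma (adjusted p = 0.568). Without knockout replicate 3 the difference was -0.25, with an adjusted p of 0.459 in limma, and with the spike level as a covariate it was -0.29 (interval -0.61 to 0.028).

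The dimmer probe set of Slc2a4 (1415959_at) read 8.85, 9.11 and 9.50 in knockout hearts and 9.26, 9.01 and 9.22 in wild-type hearts. The knockout hearts here spread to both sides of the wild-type range, heart 1 below it and heart 3 above it. The difference was -0.013 (95% interval -0.39 to 0.37), with a knockout level of 99.1% of wild type (adjusted p = 0.979 in limma). Its sign turned in 4 of the 6 fits without a single array, between -0.19 and 0.14. In each heart the brighter minus the dimmer probe set came to 1.12, 0.92 and 0.78 in knockout hearts, against 0.95, 1.28 and 1.04 in wild-type hearts. This gap averaged 0.94 ± 0.17 in knockout and 1.09 ± 0.17 in wild-type hearts, and the 2 probe sets were not shown to respond differently to the genotype (-0.15, exact two-sided permutation p = 0.4, where 3 against 3 cannot go below 0.1). In both probe sets knockout heart 1 was the lowest of the 6 hearts. The mean of both probe sets differed by -0.087 (95% interval -0.37 to 0.19).

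**Figure D2:**
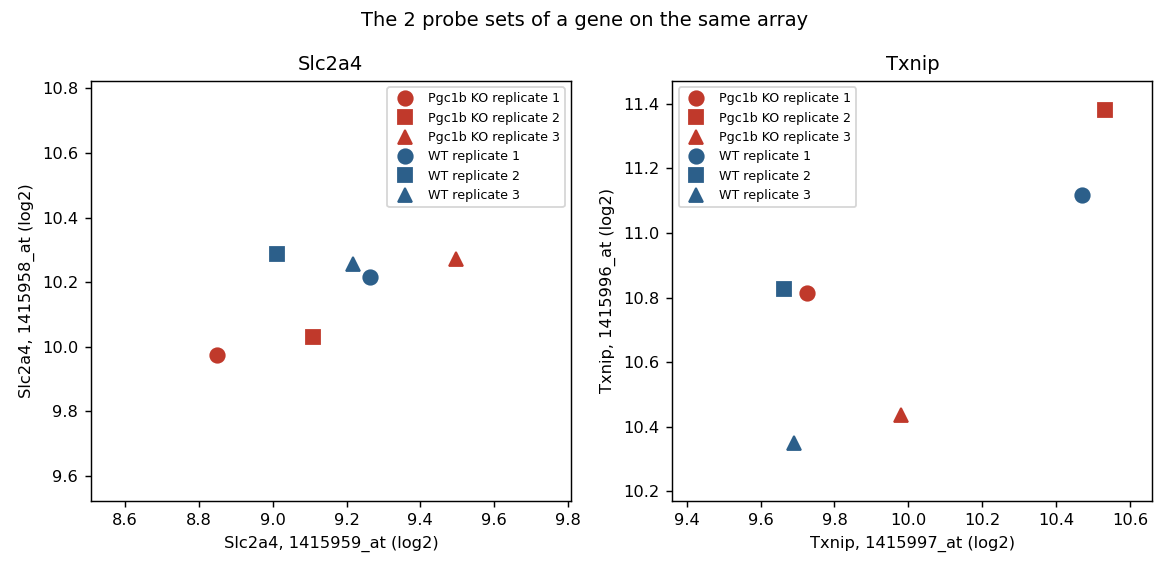
The brighter against the dimmer probe set of Slc2a4 (left) and Txnip (right) in each heart, in log2 units, with Pgc1b knockout in red, wild type in blue and the replicate number as the symbol. Knockout heart 1 is lowest on both axes for Slc2a4, and knockout heart 2 and wild-type heart 1 are highest on both axes for Txnip.

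Txnip, the arrestin that restrains glucose uptake, varied more between hearts of 1 genotype than between genotypes. Its brighter probe set (1415996_at) read 10.81, 11.38 and 10.44 in knockout hearts and 11.12, 10.83 and 10.35 in wild-type hearts. The dimmer one (1415997_at) read 9.73, 10.53 and 9.98 in knockout hearts and 10.47, 9.66 and 9.69 in wild-type hearts. Knockout heart 2 and wild-type heart 1 were the highest pair in both probe sets, so the high hearts came from both genotypes. Within each genotype the brighter probe set followed the order of the hybridisation spikes. These read 9.55, 9.68 and 9.32 on knockout arrays and 10.15, 9.84 and 9.69 on wild-type arrays. The dimmer probe set shared only the highest array of each genotype with that order. The part of array handling in the spread of Txnip was not tested. From the lowest to the highest heart the brighter probe set spanned 1.92-fold among knockout and 1.70-fold among wild-type hearts, and the dimmer one 1.75-fold in each genotype.

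The genotype differences of Txnip were 0.11 (95% interval -0.51 to 0.74, adjusted p = 0.895 in limma) and 0.14 (interval -0.49 to 0.77, adjusted p = 0.866). As a share of wild type the brighter probe set stood at 108% in knockout hearts, with an interval of 70.0% to 167%, so these arrays cannot place Txnip above or below wild type. Without knockout replicate 2 both differences turned to -0.14 and -0.089. Of the 2 probe sets, the brighter turned to -0.095 without wild-type replicate 3 and the dimmer to -0.0020 without wild-type replicate 2. With the spike level as a covariate the differences were 0.84 (interval 0.39 to 1.28) and 0.75 (interval 0.050 to 1.44), and neither passed in limma (adjusted p = 0.306 and 0.463). The spike level does not overlap between the genotypes, so these intervals cannot separate it from the genotype. The gap between the probe sets averaged 0.80 ± 0.32 in knockout and 0.82 ± 0.29 in wild-type hearts (exact permutation p = 0.9).

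The spread of Txnip stood out among the measured probe sets. The SD within a genotype, pooled over both, was 0.433 and 0.436, beside a median of 0.118 over the 643 probe sets. This placed the probe sets at percentiles 98.6 and 98.8 of all 643. Among the 88 probe sets with a mean of at least 10 they had the highest values, and the next one stood at 0.329. The mean of the dimmer Txnip probe set, 10.01, lies just above that level. Some probe sets below it spread more, for example 0.530 at a mean of 9.24. Of the other members, the dimmer probe set of Slc2a4 came at percentile 90.2 of the spread, Slc16a1 at 81.6 and Pfkp at 73.9. The brighter probe set of Slc2a4, Ldhb and Tpi1 lay below the median spread, at percentiles 48.2, 43.1 and 22.9.

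**Figure D3:**
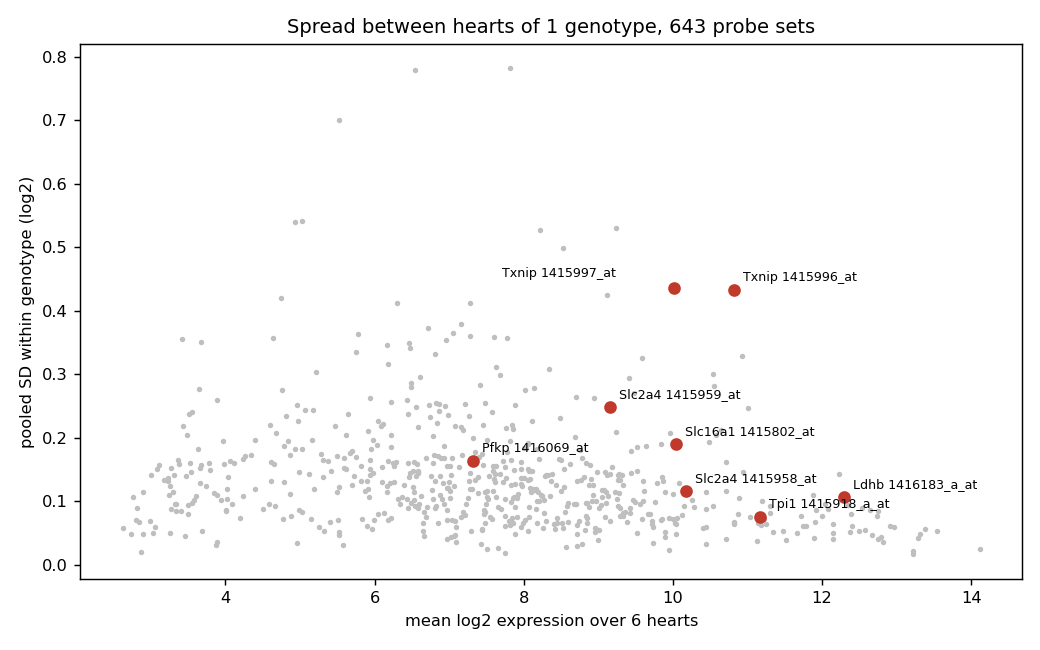
Pooled SD within genotype against mean log2 expression over the 6 hearts for 643 probe sets (grey), with the 8 probe sets of the glucose and lactate genes in red. Both Txnip probe sets lie above every other probe set with a mean of at least 10, and some probe sets with a lower mean lie higher.

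Pfkp encodes the platelet isoform of phosphofructokinase, whose muscle isoform, Pfkm, was not analysed here. Its probe set read 6.93, 7.22 and 7.29 in knockout hearts 1 to 3, against 7.37, 7.47 and 7.63 in wild-type hearts 1 to 3. All knockout hearts lay below all wild-type hearts, by a narrow margin between knockout heart 3 and wild-type heart 1. The means were 7.15 ± 0.19 in knockout and 7.49 ± 0.13 in wild-type hearts (SD, n = 3 each). The difference of -0.34 (95% interval -0.61 to -0.067) corresponds to 79.1% of wild type (interval 65.5% to 95.4%). Only 6 of the 643 probe sets had a larger drop, yet Pfkp did not pass in limma (unadjusted p = 0.0210, adjusted p = 0.385).

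The direction of Pfkp held in all 16 alternatives, between -0.51 with the spike level as a covariate and -0.23 without knockout replicate 1. Other prior variances, the filter on dim probe sets, gene-level values and the replicate block leave its difference at -0.34 by construction. The direction could turn only in the remaining settings. The unadjusted p in limma was 0.0541 without knockout replicate 1 and 0.0745 without wild-type replicate 3, and stayed under 0.05 in the other 14. With the replicate number as a block it was 0.00771 (adjusted p = 0.459 in limma). In whole hearts, fewer cells of a type that expresses Pfkp and less Pfkp RNA per cell cannot be told apart.

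Tpi1, the triosephosphate isomerase, read 11.13, 11.07 and 11.26 in knockout hearts and 11.21, 11.15 and 11.21 in wild-type hearts. The knockout hearts straddled the wild-type range, and the difference was -0.035 (95% interval -0.21 to 0.14), or 97.6% of wild type. The interval, from 86.2% to 111% of wild type, is the narrowest of the 8. Of the 26 listed genes of hexokinase and glycolysis 3 were measured among the gene probe sets, Pfkp, Tpi1 and Bpgm. Of these, 1 had an unadjusted p under 0.05 and was lower, Pfkp, 0 were higher at that level, and 0 passed the adjustment. Over all 643 probe sets, 10.3% had an unadjusted p under 0.05 in limma, and 4.98% were lower at that level. Pfkp is the member already described above. Bpgm, which makes 2,3-bisphosphoglycerate in red cells, read 8.06, 7.37 and 7.91 in knockout hearts and 7.20, 7.70 and 7.50 in wild-type hearts, with overlap (0.31, interval -0.15 to 0.78). A dimmer probe set of Bpgm differed by 0.46 (interval -0.067 to 0.996), also with overlap.

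Gapdh, which oxidises glyceraldehyde 3-phosphate after the isomerase step, is represented by 3 control probe sets that were left out of the limma fit. Its 3′ probe set averaged 13.48 ± 0.054 in knockout and 13.48 ± 0.049 in wild-type hearts (SD, n = 3 each). The 3 probe sets differed by -0.0048, -0.0035 and -0.036, with exact two-sided permutation p-values of 0.9, 1 and 0.6.

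**Figure D4:**
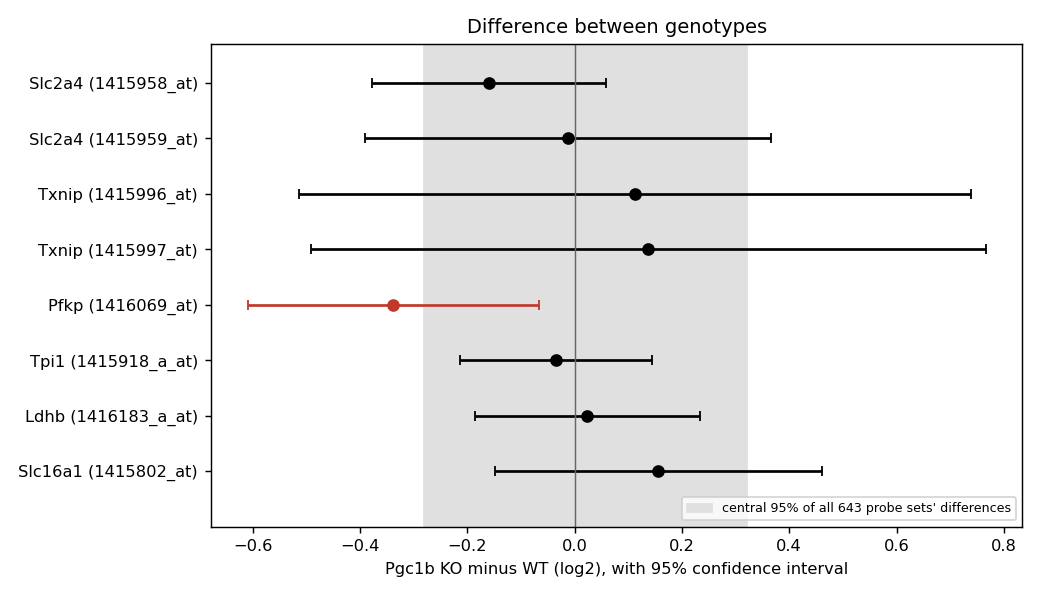
Knockout minus wild-type difference in log2 units for each of the 8 probe sets, with limma's 95% confidence intervals; the grey band holds the central 95% of the differences of all 643 probe sets, from -0.28 to 0.32. The interval of Pfkp (red, the probe set without overlap) ends at -0.067, and the other 7 intervals include 0.

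Ldhb, the heart subunit of lactate dehydrogenase, read 12.18, 12.28 and 12.46 in knockout hearts and 12.28, 12.24 and 12.33 in wild-type hearts. Knockout heart 1 lay below and knockout heart 3 above all wild-type hearts. The means were 12.30 ± 0.14 in knockout and 12.28 ± 0.043 in wild-type hearts (SD, n = 3 each), a difference of 0.024 (95% interval -0.19 to 0.23). The knockout level was 102% of wild type with an interval of 87.9% to 118%. Without knockout replicate 3 the difference turned to -0.055.

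Slc16a1, the lactate transporter MCT1, read 9.87, 10.17 and 10.31 in knockout hearts and 10.02, 10.07 and 9.79 in wild-type hearts. Knockout hearts 2 and 3 lay above all wild-type hearts, while knockout heart 1 lay inside the wild-type range. The means were 10.11 ± 0.23 in knockout and 9.96 ± 0.15 in wild-type hearts (SD, n = 3 each), and the difference of 0.16 (95% interval -0.15 to 0.46) did not pass in limma (adjusted p = 0.690). It kept its direction in all 16 alternatives, from 0.060 without knockout replicate 3 to 0.28 without knockout replicate 1. As for Pfkp, several of these settings leave the difference unchanged by construction. In the fit without knockout replicate 1 its unadjusted p in limma was 0.0395 and its adjusted p 0.342. Of the 8 listed lactate genes 3 were measured, Ldhb, Slc16a1 and Emb. Of these, 0 had an unadjusted p under 0.05 in limma in either direction, beside 10.3% of all 643 probe sets. Emb encodes embigin, an ancillary protein of monocarboxylate transporters, and differed by 0.092 (interval -0.19 to 0.38).

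Pyruvate from glycolysis or lactate enters the mitochondrion, where pyruvate dehydrogenase and pyruvate carboxylase use it. Of the 14 listed genes of this step only Pdhb was measured among the gene probe sets, at 11.94, 12.04 and 12.03 in knockout hearts and 12.32, 12.29 and 12.24 in wild-type hearts. Its genotypes did not overlap, beside 9.02% of all 643 gene probe sets in the downward direction. Its difference of -0.28 had an adjusted p of 0.298 in limma. Pcx, the carboxylase that turns pyruvate into oxaloacetate, has 4 control probe sets that were left out of that fit. All 4 had lower means in knockout hearts, as did 45.7% of the 643 gene probe sets. The 2 middle Pcx probe sets differed by -0.26 and -0.24, and in both all knockout arrays lay below all wild-type arrays (exact permutation p = 0.1 each, the smallest possible). Such a downward gap was found in 9.02% of the 643 gene probe sets. The 3′ and 5′ probe sets of Pcx both differed by -0.13 with overlap (exact permutation p = 0.3 and 0.5). The 4 Pcx probe sets read 1 gene on the same arrays. The middle ones were dim, with genotype means of 5.33 to 5.92, beside array medians of 7.45 to 7.61.

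Other genes around glucose use were sparsely measured. Txn1, the thioredoxin that Txnip binds, was the only other measured gene of the 10 listed with the alpha-arrestins and glucose-sensing factors, and differed by 0.054 (95% interval -0.14 to 0.25). Pdpk1, the kinase that activates Akt downstream of insulin, was the 1 measured gene of 21 in the list from the insulin receptor to GLUT4, and differed by -0.035 (interval -0.22 to 0.15). Hif1a, a hypoxia-regulated inducer of glycolytic genes, was the 1 measured of 17 listed transcription factors and coactivators, and differed by -0.11 (interval -0.36 to 0.15). None of these 3 had an unadjusted p under 0.05 in limma, beside 10.3% of all 643 probe sets. Genes of the glycogen and hexosamine list and of the pentose phosphate list were not analysed here.

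Several members followed the same order across the knockout hearts. In all 6 probe sets outside Txnip, knockout heart 3 was the highest of the 3 knockout hearts, and in 5 of these 6 knockout heart 1 was the lowest. Over the 8 probe sets together this made 6 with knockout heart 3 highest, beside 33.6% of all 643, and 6 with knockout heart 1 lowest, beside 46.5%. The SD was larger among knockout than among wild-type hearts in 7 of the 8 probe sets, the dimmer Txnip probe set being the exception, beside 54.9% of all 643. Slc2a4 (brighter probe set), Tpi1 and Ldhb spanned 1.23-fold, 1.14-fold and 1.22-fold among the knockout hearts, against 1.05-fold, 1.05-fold and 1.06-fold among the wild-type hearts. The probe sets share the same 6 arrays, so these counts are a description. The order was also seen in some control probe sets of Gapdh, a glycolysis gene that is not a member. Across knockout hearts 1 to 3 the Gapdh control probe sets read 13.25, 13.44 and 13.50 (5′) and 13.37, 13.55 and 13.59 (middle). In the 3′ one heart 3 was highest and heart 2 lowest. The poly-A spikes, read by other control probe sets, ran the other way, at 7.61, 7.32 and 6.49. What sets this order was not tested.

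The genes most like each member over the 6 arrays were looked up among 488 other genes, by Pearson's r of the log2 values and as a description. Pfkp was most like the amino acid transporter gene Slc38a1 (r = 0.983) and the mitochondrial ribosomal protein gene Mrpl27 (r = 0.976), which differed by -0.27 and -0.093 between the genotypes. Slc2a4 was most like Ythdf1 (r = 0.963) and the nuclear pore gene Nup62 (r = 0.890), which differed by -0.18 and -0.17. Txnip was most like Pdcd6ip (r = 0.973) and the early response gene Ccn1 (r = 0.936). Tpi1 was most like the helicase gene Mcm6 (r = 0.971) and Plekhb1 (r = 0.955), and Ldhb was most like Ywhaz (r = 0.962) and the nuclear transport gene Xpo7 (r = 0.960). Slc16a1 was most like the ribosomal protein gene Rps6 (r = 0.967) and the actin regulator gene Arpc1a (r = 0.949). The number of genes with r over 0.9 was 8 for Pfkp, 6 for Ldhb, 5 for Slc16a1, 4 each for Txnip and Tpi1 and 1 for Slc2a4. The median r over the 488 genes lay between -0.046 (Tpi1) and 0.098 (Slc16a1). How many genes pass 0.9 by chance with 6 arrays was not tested. For Slc2a4 and Txnip the brighter probe set was used, and their 2 probe sets correlated at 0.63 and 0.76.

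**Figure D5:**
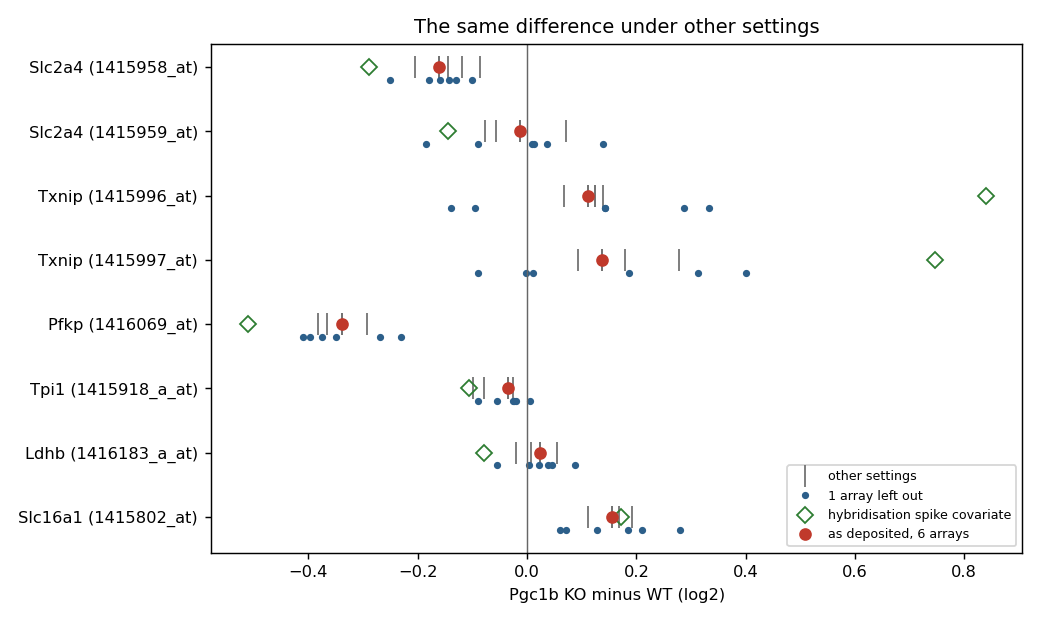
Knockout minus wild-type difference in log2 units for each probe set in the deposited values (red), with 1 array left out (blue, 6 values), with the level of the hybridisation spikes as covariate (green diamonds) and under the other settings (grey bars). All values of Pfkp and of the brighter Slc2a4 probe set lie below 0 and all values of Slc16a1 above 0, and the other 5 probe sets have values on both sides.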

How the data were processed

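The deposited table gives log2 values with a column for each array. GCOS, Partek and RMA are named for it, without versions or order, per the submitters' processing notes, and RMA by the authors means that changes are relative to the other genes of an array. Per the labels' protocols, total RNA was amplified with a whole-transcriptome kit and converted to labelled cRNA. Values lie between 2.56 and 14.1. Of 45101 rows, 707 held values, 643 of them gene probe sets and 64 control probe sets, which stayed out of the tests. All 597 probe sets with 1 symbol matched a RefSeq gene by ID, and 0 columns were unmapped. The arrays' genome build is not stated in these sources.

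Knockout minus wild type was fitted with limma 3.58.1 under R 4.3.3 (two-sided, lmFit then eBayes), without a filter, covariate or further normalization. P-values were adjusted by Benjamini-Hochberg over the 643 probe sets. The script was tested on simulated data. Each genotype had 3 arrays, and sources of imprecision were not compared. Values computed once per array had exact permutation tests. Alternatives were quantile normalization, median centring, other prior variances, array weights, a filter on dim probe sets, gene-level values, the replicate block, the spike covariate and each array left out. For genes with more than 1 probe set, lists used the one with the highest mean. Named genes are the members, the 2 most alike genes of each and the measured genes of pathway and marker lists; Atp5o, outside this rule, was named after its values were seen. The members and lists were chosen with earlier results of these data known.

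The labels number both genotypes 1 to 3 without pairing them.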

Additional observations from a re-analysis of the deposited data

How the results depend on the processing

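With 3 hearts per genotype, the interval of a member reached between 0.18 and 0.63 to either side, and differences smaller than that could not be told from 0. Of the 8 probe sets 3 kept their direction in every alternative run, Pfkp, Slc16a1 and the brighter Slc2a4 probe set. Other prior variances, the filter on dim probe sets and the replicate block leave a difference unchanged by construction, so no direction could turn there. Of 124 values of the members, 0 had an adjusted p under 0.05 in limma (smallest 0.242). The dimmer Slc2a4 probe set turned to 0.072 with array weights and lay between -0.19 and 0.14 in the fits without 1 array. Ldhb turned to -0.020 with median centring and to -0.078 with the hybridisation spike covariate, and ran from -0.055 to 0.088 with each array left out. In the same fits Txnip ran from -0.14 to 0.33 (1415996_at) and from -0.089 to 0.40 (1415997_at), and Tpi1 from -0.090 to 0.0055. The cause was not tested. The number of members with an unadjusted p under 0.05 was 1 as deposited. It was 3 with the spike covariate, whose level did not overlap between the genotypes and which added both Txnip probe sets. It ran from 0 to 2 with each array left out, 0 without wild-type replicate 3 and 2 without knockout replicate 3, where the brighter Slc2a4 probe set joined Pfkp. Without knockout replicate 1 it was 1, with Slc16a1 (0.28, unadjusted p = 0.0395 in limma) in place of Pfkp. The background moved as well. Of all 643 probe sets, 66 had an unadjusted p under 0.05 in limma as deposited, and 66 with the spike covariate. Without wild-type replicate 3 it was 50 of the 643, without knockout replicate 3 it was 54 and without knockout replicate 1 it was 88. Over all 643 probe sets, limma called 0, and 2 with a prior variance that follows expression, Atp5o (-0.28) and a probe set with 2 gene symbols (-0.45). Deviations of same-numbered arrays correlated at -0.24, -0.10 and 0.19 across probe sets, so the numbers were not taken as pairs, and the replicate block gave 51 probe sets at an unadjusted p under 0.05 against 66 without it, with Pfkp at -0.34. No call changed with the block.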
